A study of Rattus norvegicus with 4 samples.

Results

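The BMP, activin and AMH receptors are 9 genes, 5 of type I (Bmpr1a, Bmpr1b, Acvr1, Acvr1b and Acvrl1) and 4 of type II (Bmpr2, Acvr2a, Acvr2b and Amhr2). They were taken by gene symbol from a table of 31007 gene rows, and each had 1 row. The samples were the superficial zone (SFZ) and the deeper layers (deep AC) of articular cartilage from the proximal tibia of 2 Sprague-Dawley rats, 10 weeks old, with no treatment or genetic change named in the labels. Each rat gave 1 library of each zone, cut out of frozen sections by laser microdissection, and the RNA was amplified linearly before sequencing. The comparison asks how the expression of a gene at the joint surface differs from that in the layers under it in the same animal.

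Ligands of the BMP, activin and AMH families signal through complexes of type II and type I receptors, which are serine and threonine kinases. The type II receptor is constitutively active and phosphorylates the type I receptor, which then phosphorylates SMAD proteins that enter the nucleus. In cartilage, BMP receptors are known for their part in chondrocyte differentiation and in keeping the adult tissue. AMH (anti-Müllerian hormone) is known for the regression of the Müllerian duct in male embryos, and Amhr2 is its type II receptor.

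Amhr2 was read in both deep AC libraries and had no read in either SFZ library. Bmpr1a, a type I receptor of BMPs, was lower in SFZ by close to the same amount in both rats. Acvr1, Acvrl1 and Bmpr2 differed in opposite directions in the rats, and Acvr2a and Acvr2b could be compared in 1 rat each. Bmpr1b and Acvr1b had hardly any reads. By limma on all rows tested, 0 of the 7 receptors tested passed an adjusted p of 0.05. Amhr2 alone had an unadjusted p under 0.05, and with a minimum mean of 100 scaled reads its unadjusted limma p was 0.267. Of all 8747 rows tested, 0.0114% passed the adjusted threshold (0.0114% lower in SFZ and 0% higher) and 9.82% the unadjusted one (5.27% lower and 4.55% higher).

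The deposited values are log2 values centred on each row's median, and all differences below are SFZ minus deep AC on that log2 scale. Values under a floor of 1 scaled read had been set to the floor, which let the reads behind each value be recovered. A value at the floor stands for 0 reads in an SFZ library. In a deep AC library it can also stand for 1 read, and in both zones for part of a read shared between genes. All such values are written as 0 reads here. A count of 0 allows up to 3 reads by counting error alone. For Bmpr1a, Acvr1, Acvrl1 and Bmpr2 the reads are the lowest whole numbers that match the deposited differences, and the true reads could be a common multiple of them. Intervals of read ratios are exact 95% binomial intervals that cover counting error only. Linear amplification makes several reads from 1 molecule, so they are too narrow.

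Rows whose reads could be recovered held between 3746172 and 3939313 reads in each library, and the full depth is unknown. Fewer rows were above the floor in SFZ, 8229 in rat 1 and 8352 in rat 2, than in deep AC, 10022 and 9223. The part of this in genes with 0 reads in SFZ was not tested. Of 8 cartilage markers, 7 were above the floor in both deep AC libraries, and Sox9 was listed at 0 in every library. Of the 7 tested, 6 were at least 2-fold lower in SFZ in both rats, as were 11.9% of all tested rows. The list medians were -1.55 in rat 1 and -2.52 in rat 2, so cartilage markers moved with Amhr2 and Bmpr1a. Col2a1, the main cartilage collagen, stood at -2.51 and -2.60. Their part in the receptors' differences was not tested. Of 4 tested superficial zone markers, 4 were at least 2-fold higher in SFZ in both rats, as were 6.44% of all tested rows. The 2 SFZ libraries stood further apart than the 2 deep AC libraries: 19.1% of tested rows differed by 3 or more log2 units between the SFZ libraries and 5.96% between the deep AC libraries. In such tissue, fewer cells of a type and less RNA per cell cannot be told apart.

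**Figure D1:**
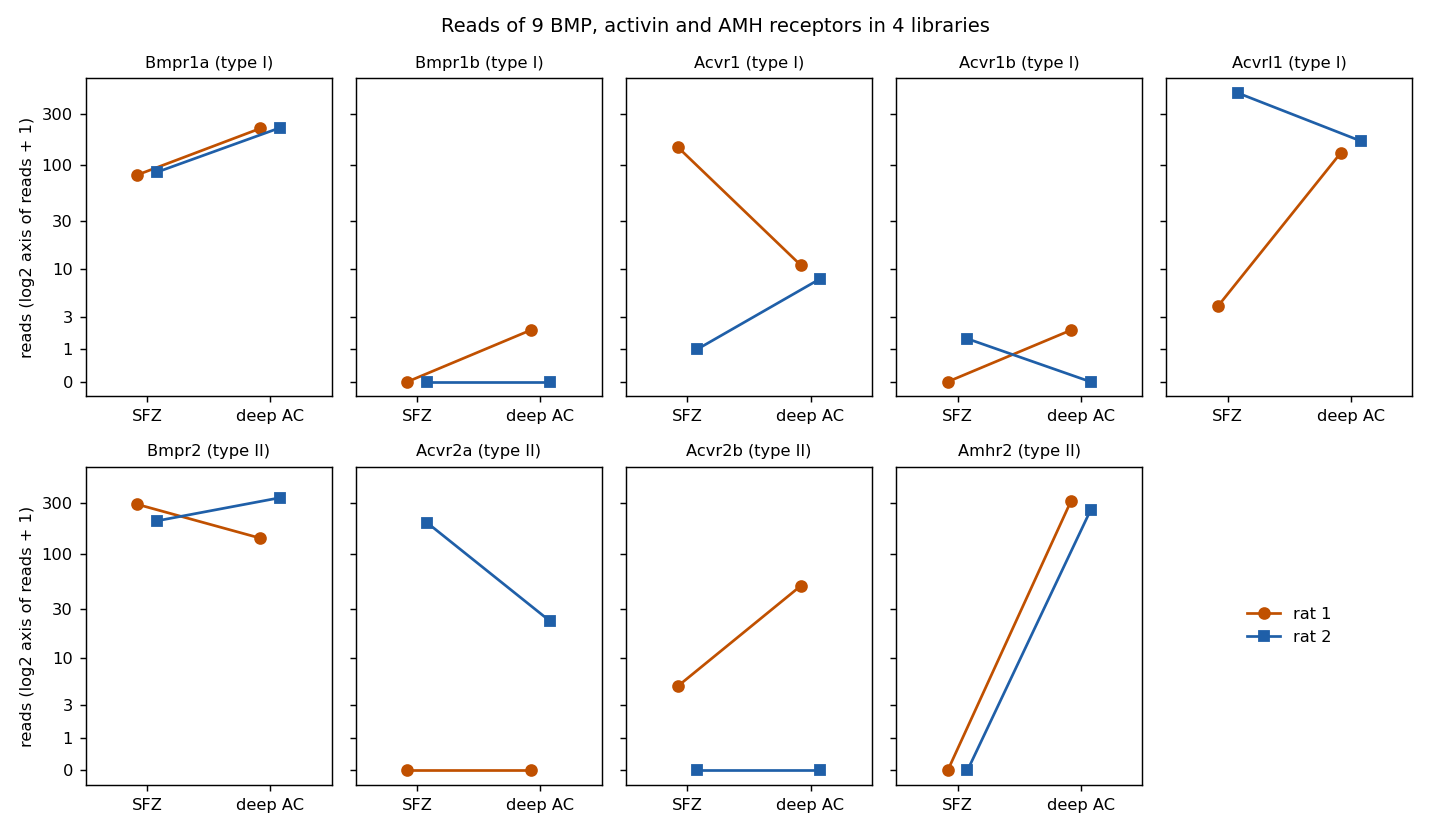
Recovered reads of the 9 receptors (vertical axis, log2 scale of reads plus 1) in SFZ and deep AC. Circles joined by a line are rat 1 and squares rat 2; Bmpr1a and Amhr2 are the 2 receptors whose SFZ values both lie below both deep AC values by at least 2-fold in each rat.

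Amhr2 (Entrez 29530, rn4 chromosome 7, 141203832 to 141212653, plus strand) had 0 reads in both SFZ libraries, and in deep AC it had 308 in rat 1 and 255 in rat 2. The zones did not overlap, and the deep AC libraries stood close together. Against 3 reads over both SFZ libraries, Amhr2 was 179-fold lower in SFZ. This figure covers counting error only and is not a firm bound. Acvr2a, for example, had 0 reads in SFZ of rat 1 and 195 in that of rat 2. Its differences were -8.26 in rat 1 and -7.88 in rat 2, a mean of -8.07 ± 0.27 (SD, n = 2 rats; limma SE 1.79, unadjusted p = 0.00748, adjusted p = 0.363). Both differences were taken against the floor and depend on it. Over 12 alternative settings the mean difference stayed negative, which most of them could not change because the zones do not overlap. In those that kept all 4 libraries the adjusted p from limma ran from 0.216 to 0.726. With a minimum mean of 100 scaled reads the unadjusted limma p was 0.267 for the same difference. The mean of 136 scaled reads by which Amhr2 passed either minimum came from deep AC. Amh, which encodes the ligand of this receptor, was listed at 0 in all 4 libraries.

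Prr13, the row nearest to Amhr2 in the genome, starts 4256 bases after the end of Amhr2 on the same strand, and had 317 and 348 reads in SFZ and 72 and 156 in deep AC. It was thus higher in SFZ, where Amhr2 had no read. No other row of the table overlapped Amhr2. The sources used here do not say whether reads were counted by strand.

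Markers of hypertrophic and calcified cartilage moved with Amhr2. Of 6 tested, 5 were at least 2-fold lower in SFZ in both rats, as were 11.9% of all tested rows. Among them was Phospho1, a phosphatase of matrix mineralization, with 0 and 0 reads in SFZ and 287 and 642 in deep AC. Mmp13, a collagenase, had 0 and 0 reads in SFZ and 254 and 116 in deep AC. The 4 markers with known reads, Col10a1 at 0 in every library among them, summed to 0 and 0 reads in SFZ and to 541 and 839 in deep AC. Of 5 tested bone markers, 3 were at least 2-fold lower and 1 higher in both rats, beside 11.9% and 6.44% of all tested rows. The 7 bone markers with known reads summed to 1400 and 64 in SFZ and to 753 and 133 in deep AC, with Sp7 and Sost at 0 in every library. The sum hides markers that differ. Col1a1 had 1113 and 58 reads in SFZ and 8 and 13 in deep AC, and Phex 286 and 0, and 187 and 41. Dmp1 had 1 and 1 in SFZ and 531 and 53 in deep AC, and Mepe 0 and 0, and 27 and 15. Ibsp, without recovered reads, is in both the bone and the hypertrophic list and stood at -8.75 and -10.27. The part of these tissues in the Amhr2 difference was not tested.

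Bmpr1a (Entrez 81507, rn4 chromosome 16, 10061943 to 10105854, minus strand) had 81 reads in SFZ and 220 in deep AC of rat 1, and 86 and 223 in rat 2. It encodes the receptor also called ALK3, which binds BMPs. Both SFZ libraries were below both deep AC libraries, and libraries of a zone stood within 0.06 (SFZ) and 0.09 (deep AC) log2 units of each other. Deep AC exceeded SFZ by a scaled read ratio of 2.65 (2.04 to 3.46) in rat 1 and 2.39 (1.86 to 3.10) in rat 2. The differences were -1.40 and -1.26, a mean of -1.33 ± 0.10 (SD, n = 2 rats; limma SE 0.91, adjusted p = 0.668). Limma's SE is larger than this SD because it draws on the spread of all rows at a similar level. The mean difference ran from -1.38 to -1.17 over 12 alternatives, with an adjusted p from 0.219 to 0.854. The nearest row, Mmrn2, was listed at 0 in all 4 libraries.

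The promoters of these 2 receptors are shown because they alone were lower in SFZ in both rats. The windows are from RefSeq on GRCr8, a build other than that of the table, and hold 250 bases before a transcript start and 50 after it. Capitals mark the motif letters found on either strand.
Amhr2, chr7:135457672-135457971, plus strand: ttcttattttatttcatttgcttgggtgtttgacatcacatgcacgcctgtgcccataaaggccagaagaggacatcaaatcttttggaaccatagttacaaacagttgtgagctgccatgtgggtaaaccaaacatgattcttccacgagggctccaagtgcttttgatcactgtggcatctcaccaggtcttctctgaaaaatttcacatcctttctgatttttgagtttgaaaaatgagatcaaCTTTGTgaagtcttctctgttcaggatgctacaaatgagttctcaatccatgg
Bmpr1a, chr16:9786812-9787111, minus strand: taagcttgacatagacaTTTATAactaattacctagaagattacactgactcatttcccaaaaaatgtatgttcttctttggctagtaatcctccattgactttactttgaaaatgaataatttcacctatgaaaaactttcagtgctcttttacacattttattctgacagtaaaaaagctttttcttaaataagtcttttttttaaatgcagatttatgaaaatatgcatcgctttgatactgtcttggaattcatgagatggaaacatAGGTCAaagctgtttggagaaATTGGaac

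The Amhr2 window held 1 match to ACAAAG, the core of SOX factor sites, as its reverse complement CTTTGT, a match that 18.8% of all 33469 promoter windows have. The Bmpr1a window held 1 match each to AGGTCA, a core site of nuclear receptors (16.2% of windows), CCAAT (37.5%) and TATAAA (14.2%). None of these overlapped. AGGTCA and CCAAT began at bases 272 and 293 of the window, after the start, and TATAAA at base 18, far before it. CCAAT and TATAAA were found as their reverse complements. Neither window held CAGAC, the SMAD box (50.1%), or GGGCGG, the GC box (33.1%). A match is a description of letters and not of binding. The Amhr2 window surrounds a start that lies 3405 bases inside the annotated span of the gene, so it is not the window of its outermost start.

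RefSeq windows were found for 6 of the 9 receptors. Amhr2 had 2 CpG dinucleotides and Bmpr1a 1, in a set of windows whose median is 7. Bmpr2 had 24, Acvr2a 19, Acvr2b 38 and Acvr1b 45, all in the upper part of that set: 18%, 25.7%, 4.23% and 1.66% of windows had as many or more. The 2 windows with few CpG were thus those of the 2 receptors lower in SFZ in both rats. This was seen after the values were known and rests on 6 genes. Of the others, Acvr1b was not tested, and Acvr2a and Acvr2b could be compared in 1 rat each. In that rat Acvr2b, with 38 CpG, was also lower in SFZ, at -3.28. The Amhr2 window is not that of its outermost start, so its CpG count may not describe the main promoter.

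Bmpr2 (Entrez 140590, rn4 chromosome 9, 58327587 to 58436057) encodes the main type II receptor of BMPs. Rat 1 gave 289 reads in SFZ and 140 in deep AC, and rat 2 gave 203 and 333. The zones overlapped, with deep AC rat 1 lowest and deep AC rat 2 highest. SFZ exceeded deep AC by a ratio of 2.12 (1.72 to 2.61) in rat 1, and in rat 2 the ratio was 0.661 (0.553 to 0.790). The mean difference was 0.24 ± 1.19 (SD, n = 2 rats; limma SE 0.79, adjusted p = 0.952). No zone difference was detectable for Bmpr2 beyond the spread between rats.

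Acvr1 (Entrez 79558, rn4 chromosome 3, 40191727 to 40260488), the type I receptor ALK2, had 148 reads in SFZ and 11 in deep AC of rat 1, and 1 and 8 in rat 2. The deep AC libraries were alike, and the SFZ libraries lay on either side of them. The differences were 3.79 in rat 1 and -2.88 in rat 2, a mean of 0.45 ± 4.72 (SD, n = 2 rats; limma adjusted p = 0.974). With quantile normalization the rat 2 difference was 0.45, so its sign rests on the scaling. The ratio in rat 1 was 13.8 (7.49 to 28.2), and in rat 2, from 1 read, it was 0.136 (0.00306 to 1.01). In SFZ rat 1, the macrophage markers C1qa and C1qb had 119 and 91 reads, and neither had a read in any of the other 3. Lyz2 was also higher in SFZ of rat 1, with 1649 reads against 146 in deep AC. Mrc1, Ptprc, Cd68 and Csf1r were lower there. They had 1112, 27, 0 and 1 reads in SFZ of rat 1 and 3524, 113, 34 and 5 in its deep AC. The 7 macrophage markers summed to 2999 and 1730 reads in SFZ and to 3822 and 1978 in deep AC, and their part in the Acvr1 reads was not tested.

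Acvrl1 (Entrez 25237, rn4 chromosome 7, 139873596 to 139884675), the type I receptor ALK1, best known from blood vessels, showed the reverse. Rat 1 gave 4 reads in SFZ and 131 in deep AC, and rat 2 gave 470 and 168. The deep AC libraries were again alike and the SFZ libraries lay on either side of them. The differences were -5.00 and 1.60, a mean of -1.70 ± 4.67 (SD, n = 2 rats; limma adjusted p = 0.795). Of 8 endothelial markers, Vwf, Tie1, Emcn and Cdh5 were listed at 0 in every library, the SFZ library of rat 2 included. The 7 markers with known reads summed to 16 and 87 in SFZ and to 422 and 479 in deep AC. Nearly all of these were Egfl7, a secreted endothelial protein gene, with 16, 87, 420 and 477 reads in the same order. The remaining marker, Pecam1, has no recovered reads and stood at -0.94 and 0.16, with the signs of Acvrl1. The part of endothelium in the Acvrl1 reads was not tested.

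Acvr2a (Entrez 29263, rn4 chromosome 3, 29779827 to 29808881), a type II receptor of activins and BMPs, had 0 reads in either zone of rat 1, and 195 in SFZ and 23 in deep AC of rat 2. Both libraries of rat 1 were at the floor, so rat 1 gives no measure of a zone difference. In rat 2 SFZ exceeded deep AC by a ratio of 9.20 (5.96 to 14.9). The mean difference of 1.60 ± 2.26 (SD, n = 2 rats; limma adjusted p = 0.832) rests on rat 2. The 6 skeletal muscle markers with known reads summed to 3 reads in SFZ and 30 in deep AC of rat 1, and to 150 and 0 in rat 2. Tnnt3, Mb and Acta1 were at 0 in every library. The remaining marker of the list, Tnni2, has no recovered reads and was lower in SFZ in both rats, at -9.66 and -10.47 (limma adjusted p = 0.0141). It is the 1 row of the whole table past the threshold, and the summed markers ran the other way in rat 2 only. The part of muscle in the Acvr2a reads was not tested.

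Acvr2b (Entrez 25366, rn4 chromosome 8, 124364330 to 124395739), the other type II receptor of activins, had 5 reads in SFZ and 50 in deep AC of rat 1, and 0 in either zone of rat 2. Here rat 2 was at the floor in both zones. In rat 1 deep AC exceeded SFZ by a ratio of 9.75 (3.91 to 31.3). The mean difference was -1.64 ± 2.32 (SD, n = 2 rats; limma adjusted p = 0.841). The paralogs Acvr2a and Acvr2b were thus read in different animals, Acvr2a in rat 2 and Acvr2b in rat 1. The reads of both were whole numbers, and the sources used here do not say how reads shared between genes were counted.

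Bmpr1b and Acvr1b did not reach the minimum mean of 10 scaled reads and were not tested. Bmpr1b (Entrez 310914, rn4 chromosome 2, 239727569 to 239767802), the BMP receptor ALK6, had 2 reads in deep AC rat 1 and 0 in the other 3 libraries. Acvr1b (Entrez 29381, rn4 chromosome 7, 139939001 to 139958740), the activin receptor ALK4, had 1.5 reads in SFZ of rat 2, 2 in deep AC of rat 1 and 0 elsewhere. No zone difference could be detected at this depth for either. Acvr1b starts 54326 bases after the end of Acvrl1 on the same strand, with no other row between them. Acvrl1 had reads in every library.

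Among the 7 receptors tested, 2 were at least 2-fold lower in SFZ in both rats, where 11.9% of all tested rows were, and 0 were at least 2-fold higher, where 6.44% were. Over all tested rows this was 1040 lower and 563 higher, a split that quantile normalization turned into 714 lower and 962 higher. With that scaling 1 receptor, Acvr2a, was at least 2-fold higher in both rats, at 1.32 and 4.45, and the mean difference of Acvr2b went from -1.64 to -0.02. In 2 receptors both SFZ values lay below both deep AC values, where 22.9% of all tested rows did so, and in 0 they lay above, where 19.6% did. In 2 receptors, Acvr1 and Acvrl1, the zone difference was 2-fold or more in each rat but with opposite signs, as in 11.1% of all tested rows. The mean difference of Acvr1, Acvrl1, Bmpr2, Acvr2a and Acvr2b changed sign when 1 library was left out and zone was the only term, for example to -3.17 for Acvr1 and 1.73 for Acvrl1 without SFZ rat 1. With 7 genes, these counts do not set the receptors apart from the other rows. The receptors' median difference was -1.40 in rat 1 and -0.60 in rat 2, beside -0.13 and 0.00 over all tested rows. No exact test over 2 pairs can give a two-sided p below 0.5.

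**Figure D2:**
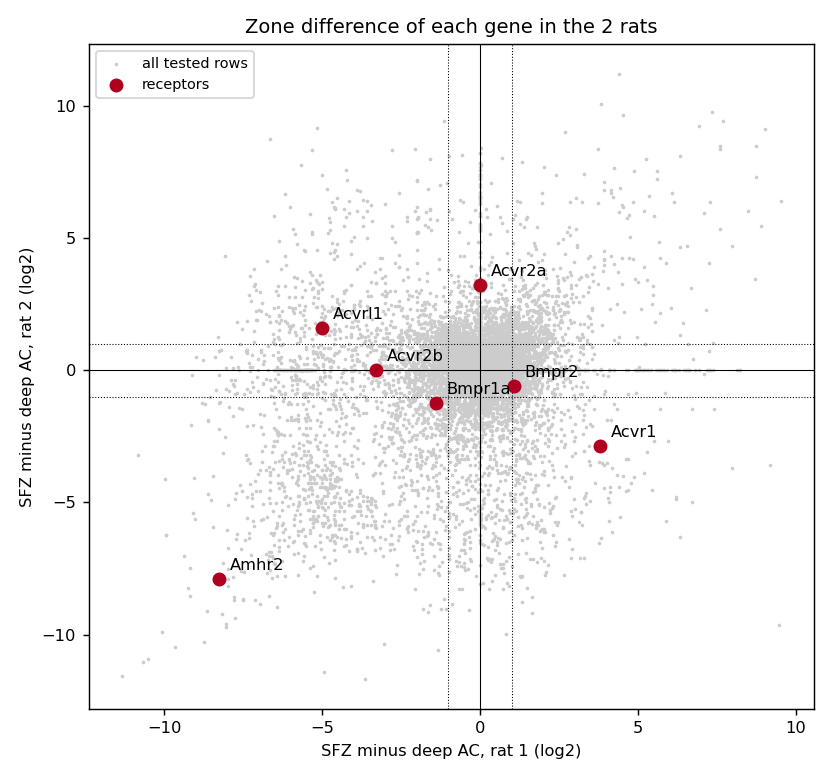
Difference between SFZ and deep AC (log2) in rat 1 (horizontal) and rat 2 (vertical) for the 8747 tested rows (grey) and the 7 tested receptors (red), with dotted lines at a 2-fold difference. Amhr2 and Bmpr1a lie in the lower left corner region, lower in SFZ in both rats, while Acvr1 and Acvrl1 lie in opposite quadrants.

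Of the 5 receptors whose zones overlapped, 3 had their larger distance between rats in SFZ. The SFZ libraries were 7.24 log2 units apart for Acvr1, 6.85 for Acvrl1 and 7.61 for Acvr2a, while the deep AC libraries were 0.57, 0.25 and 4.41 apart. The other 2 were further apart in deep AC, Acvr2b with 2.35 in SFZ and 5.64 in deep AC, and Bmpr2 with 0.54 and 1.14. Bmpr1a was 0.06 apart in SFZ and 0.09 in deep AC. Amhr2 was 0.00 apart in SFZ, where both values are at the floor, and 0.38 in deep AC. For the 3540 rows with known reads and a mean of 100 to 1000 scaled reads, which is where Bmpr1a, Bmpr2, Acvrl1 and Amhr2 stand, the median distance was 1.02 between the SFZ libraries and 0.45 between the deep AC libraries. For the 2147 rows with a mean of 10 to 100, where Acvr1, Acvr2a and Acvr2b stand, it was 2.35 and 1.15.

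**Figure D3:**
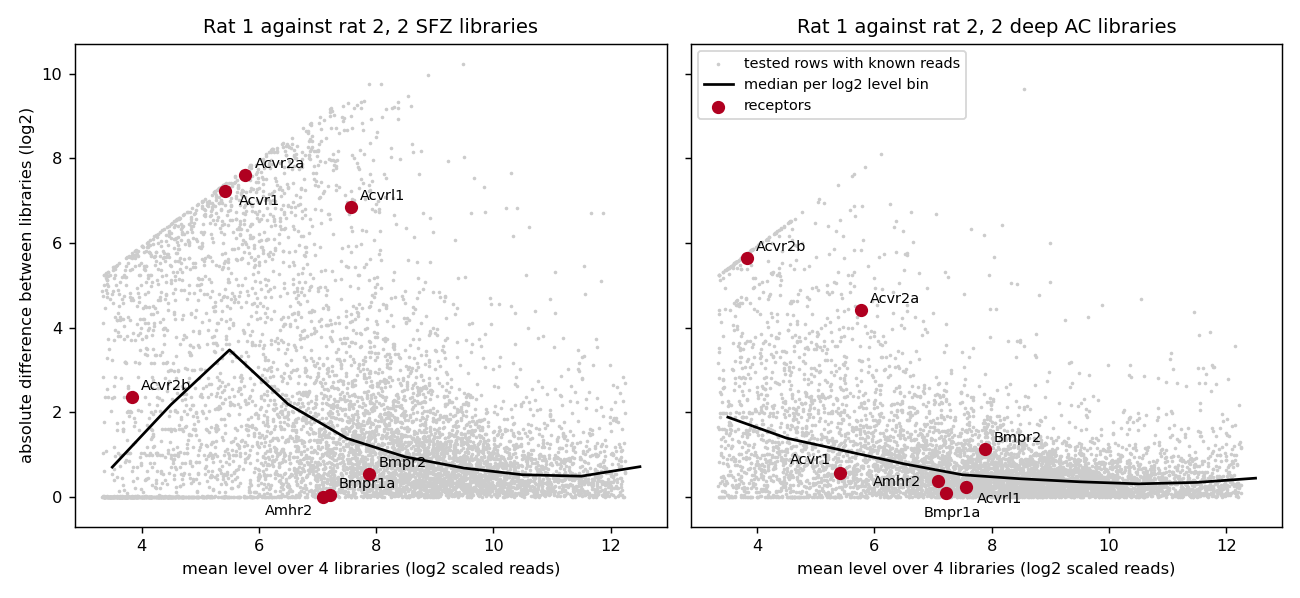
Absolute log2 difference between the libraries of rat 1 and rat 2 within SFZ (left) and within deep AC (right), against the mean level in log2 scaled reads, for tested rows with known reads (grey), the receptors (red) and the median per bin of 1 log2 unit (line). Acvr1, Acvr2a and Acvrl1 lie far above the line in SFZ, and Bmpr1a lies under it in both zones.

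For each tested receptor, the 3 rows with the smallest Euclidean distance over the 4 centred log2 values were taken as most alike, a likeness over 4 libraries of 2 zones only. For Amhr2 they were Kcnk6 (0.30), Nudcd1 (0.41) and Hapln4 (0.41). For Bmpr1a they were Pus1 (0.12), Atxn1 (0.16) and Zfyve9 (0.16). Zfyve9 encodes SARA and was also in the list of receptor partners, and this likeness does not make it a partner of Bmpr1a. For Bmpr2 they were Evl (0.12), Plcd3 (0.14) and Whamm (0.15). Acvr1 was nearest to Pax9 (0.50), Acvrl1 to Cers4 (0.34), Acvr2a to Sufu (0.41) and Acvr2b to Nnmt (0.15).

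Genes of the BMP, GDF and activin ligand families went both ways. Which of them act through these receptors was not tested, and the BMP and GDF list also holds Bmp1, which encodes a procollagen protease and not a ligand. Of 11 tested BMP and GDF ligands, 3 were at least 2-fold higher and 3 at least 2-fold lower in SFZ in both rats. Over all tested rows the shares were 6.44% and 11.9%, and none of the ligands passed limma. Bmp4, a ligand of Bmpr1a, stood at 4.52 and 6.18 (limma adjusted p = 0.462), with no reads recovered for it. Bmp7, a ligand that also acts through Acvr1, had 4 and 204 reads in SFZ and 0 and 0 in deep AC. Gdf10 had 91 and 71 reads in SFZ, while deep AC had 1334 and 2542, with differences of -3.84 and -5.04 (limma adjusted p = 0.202). Bmp8a had 1 and 11 reads in SFZ and 36 and 148 in deep AC. Of 3 tested activin and inhibin subunits, none differed by 2-fold with the same sign in each rat. Inhbb, an activin subunit singled out after its values were seen, had 1213 and 6200 reads in SFZ and 3100 and 1860 in deep AC.

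Antagonists bind BMPs or activins outside the cell. Of 7 tested, 2 were at least 2-fold lower in SFZ in both rats and 0 higher, beside 11.9% and 6.44% of all tested rows. Noggin (Nog) had 18 and 142 reads in SFZ and 883 and 1406 in deep AC, differences of -5.58 and -3.19 (limma adjusted p = 0.329). Grem1, which encodes gremlin, had 1 read in SFZ of rat 1, 0 in that of rat 2, and 1662 and 2265 in deep AC (limma adjusted p = 0.202). The list's medians were 0.74 and -0.02. Chrd, which encodes chordin and was singled out after its values were seen, stood at 0.82 and -0.02.

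**Figure D4:**
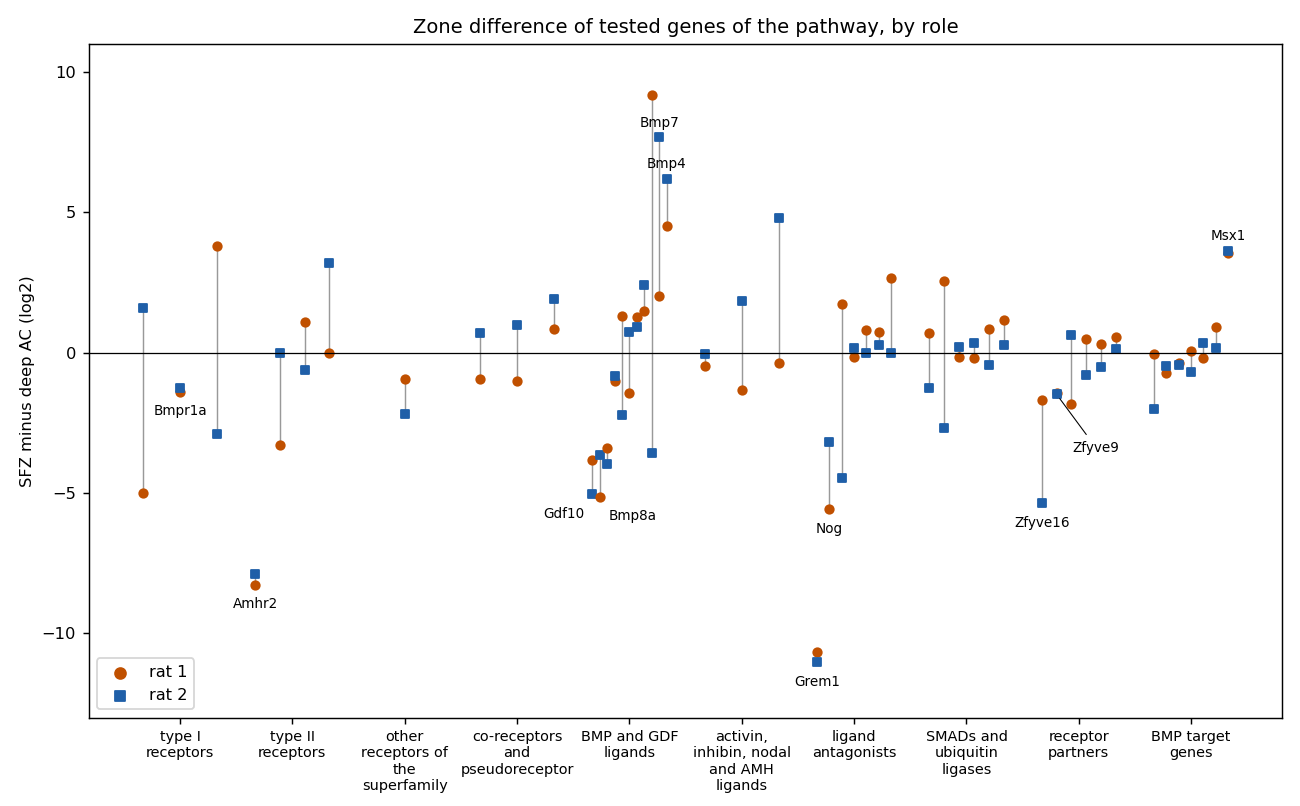
Difference between SFZ and deep AC (log2, vertical) of each tested gene of the pathway, grouped by role, with rat 1 as circles and rat 2 as squares joined by a line. Names mark genes with a difference of 2-fold or more of the same sign in each rat, up to 4 in a list; Amhr2 and Grem1 are lowest in their lists and Msx1 is highest among the target genes.

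Downstream of the receptors, of 6 tested SMADs and SMAD ubiquitin ligases, 0 differed by 2-fold or more with the same sign in each rat. Smad1, a SMAD that BMP receptors phosphorylate, had 703 and 455 reads in SFZ and 326 and 408 in deep AC. Smad7, an inhibitory SMAD, had 541 and 607 in SFZ and 633 and 525 in deep AC. Both were singled out after their values were seen. Of 6 tested receptor partners, 2 were at least 2-fold lower in SFZ in both rats, as were 11.9% of all tested rows. Zfyve9 had 642 and 638 reads in SFZ and 1760 and 1937 in deep AC, differences of -1.42 and -1.48 (limma adjusted p = 0.393). Zfyve16, which encodes a related endosomal protein, had 7 and 1 reads in SFZ and 23 and 45 in deep AC.

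Of 7 tested BMP target genes, 1 was at least 2-fold higher in SFZ in both rats and 0 lower, beside 6.44% and 11.9% of all tested rows. The higher gene was Msx1, a homeobox gene, with 402 and 568 reads in SFZ and 35 and 50 in deep AC. Its differences were 3.56 and 3.62 (limma adjusted p = 0.393). Id1, a direct target of BMP signalling singled out after its values were seen, had 820 and 756 reads in SFZ and 1381 and 1142 in deep AC, differences of -0.71 and -0.48 (limma adjusted p = 0.637). The list's medians were -0.06 and -0.45. None of the tested members of these lists passed limma over all rows.

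The remaining receptors of the superfamily and the co-receptors gave few values. Of 3 other receptors, Acvr1c was listed at 0 in all 4 libraries, and Tgfbr2 was below the minimum. Tgfbr1, the type I receptor of TGF-beta, singled out after its values were seen, had 980 and 427 reads in SFZ and 1926 and 2109 in deep AC, differences of -0.94 and -2.19 (limma adjusted p = 0.456). Of 3 tested co-receptors and pseudoreceptors, 0 differed by 2-fold with the same sign in each rat. Of all tested rows, 11.9% were so lower in SFZ and 6.44% higher. Bambi, a pseudoreceptor without a kinase domain that was singled out after its values were seen, stood at 0.83 and 1.90.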

How the data were processed

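The authors deposited 1 table of log2 values, 1 per gene row and library, with positions on rn4 per the submitters' processing notes. The table's title names TMM scaling; the aligner, the counting program and its use of strand were not given in the sources used here. Every row's median over the 4 libraries is 0, and 20218 of 31007 rows are 0 in all 4. The scaled value of 1 read was 1.022 and 1.001 in SFZ rat 1 and rat 2, and 0.9963 and 0.9227 in deep AC rat 1 and rat 2. It was found from 1397 rows above 0 in a single library, where 93.98% to 96.75% of values were whole reads to a relative tolerance of 1e-05.

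Levels came from the floor in 3375 rows and from a search for whole reads (relative tolerance 1e-06, at most 20000 reads in all) in 5365. In 2047 rows a rough level came from the binary places of the values, used only for the minimum level and the trend of the spread. The test took rows whose mean reached 10 scaled reads, with libraries at the floor counted as 1. limma 3.58.1 in R 4.3.3 was fitted with zone and rat as terms (eBayes, trend=TRUE), with 1 residual degree of freedom. All tests were two-sided, with Benjamini-Hochberg adjustment over all tested rows. The design had assumed normalized values; log2 values were tested as deposited, with nothing added. The recovery and the fit were run on simulated data with the same spread in every library and no difference between rats. That run cannot show how the fit behaves where the SFZ libraries stand further apart, as they do here. Other steps used Python 3.11.15 and scipy 1.17.1.

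Rat was used as a block, since each title names the animal a zone came from. The difference between rats in SFZ and that in deep AC had a correlation of 0.06 across 6753 rows. The labels give no batch. The p-values draw on the spread between these 4 libraries over all tested rows at a similar level. They do not rest on the gene's own spread alone, as the SE of Bmpr1a shows. The members and lists were chosen with earlier results of these data known. Named pathway genes differ by 2-fold or more with the same sign in each rat, up to 4 per list by mean difference; the 3 rows nearest to each receptor were named too, and any other is marked as chosen after its values were seen.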

Additional observations from a re-analysis of the deposited data

How the results depend on the processing

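The number of rows past limma's adjusted threshold was 1, Tnni2 of the skeletal muscle list at -9.66 and -10.47, a gene whose level is only roughly known. It was 0 with a prior without a trend (878 rows at an unadjusted p under 0.05), 0 with a pseudocount of 1 (686), 0 with a mean of at least 100 (574), 2 lower and 0 higher on rows with known reads, and 57 with quantile normalization, 29 lower and 28 higher. The fits without 1 library had zone as the only term, so they also lost the rat block, and a zone with 1 library was assumed to vary like the other. In them the count ran from 0 to 70, all of them lower in SFZ, and the effects of the library and of the block on it were not told apart. It was 70 without deep AC rat 2 and 0 without SFZ rat 1, SFZ rat 2 or deep AC rat 1, where 2136, 2081 and 771 rows had an unadjusted p under 0.05. Without the replicate block it was again 1. None of these settings brought a receptor past the threshold, and the block changed the call of no receptor. Quantile normalization moved the median of all tested rows from -0.13 to 0.02 in rat 1. It also changed the split of rows at least 2-fold apart in both rats from 1040 lower and 563 higher (64.9% lower) to 714 and 962 (42.6% lower), and the split was 362 and 439 (45.2% lower) with a mean of at least 100. The rows with both SFZ values below both deep AC values fell from 2005 to 1211 at that minimum, where fewer rows were tested.

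Receptors at least 2-fold higher in both rats went from 0 to 1 (Acvr2a) with quantile normalization. Bmpr1a and Amhr2 kept their direction in 12 of 12 alternatives, but most of these could not have turned it. Their zones do not overlap, so leaving out 1 library cannot change the sign, and several settings reuse the same values. Under quantile normalization, which could have turned it, the mean differences were -1.17 for Bmpr1a and -6.86 for Amhr2. The mean differences of the receptors whose rats or libraries disagree turned with 1 library. Leaving out 1 library, in the same fits, the ranges were -3.17 to 4.07 for Acvr1, -5.12 to 1.73 for Acvrl1, -0.33 to 0.81 for Bmpr2, -2.20 to 5.40 for Acvr2a and -4.46 to 1.18 for Acvr2b. Acvr1 stood at -3.17 and Acvrl1 at 1.73 without SFZ rat 1. Bmpr2 stood at -0.03 without SFZ rat 1 and -0.33 without deep AC rat 1. Acvr2a stood at -2.20 without SFZ rat 2 and -0.60 without deep AC rat 1, and Acvr2b at 1.18 without deep AC rat 1. The cause was not tested. Depth limits Bmpr1b and Acvr1b, which had 2 reads or fewer in any library.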
